A study of Mus musculus with 6 samples.

Results

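Aquaporin water channels were followed across the 2 culture conditions of the series through 6 genes, Aqp1, Aqp3, Aqp4, Aqp5, Aqp9 and Aqp11, taken by symbol from the 56748 genes of the deposited table. The samples were primary airway basal cells, the stem cells of the airway lining, from the tracheas of wild-type mice, and RNA was sequenced on day 4 of culture. In one group of 3 libraries the cells had received UK-5099, which blocks the mitochondrial pyruvate carrier. In the other group of 3 libraries they had received 3 inhibitors together, Y-27632, A8301 (against the type I receptors of TGF-beta) and DMH-1 (against those of BMP). The samples include no untreated cells, so a gene described as lower with UK-5099 may equally be described as higher with the 3 inhibitors. The labels give no age, sex or pooling of the animals, and do not say whether each replicate had its own animal or culture. The p-values therefore speak for the spread among these libraries, and that spread may be technical.

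Aquaporins are membrane channels through which water follows osmotic gradients. Some members, the aquaglyceroporins (Aqp3, Aqp7 and Aqp9), also pass glycerol, and several can pass hydrogen peroxide. In the airway, AQP3 is known from the membrane of basal cells, AQP4 from the basolateral membrane of columnar cells, and AQP5 from the apical membrane of gland and secretory cells and of alveolar type I cells. AQP1 is best known from endothelium and red blood cells, AQP9 from liver and leukocytes, and AQP11 from the membranes of the endoplasmic reticulum.

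Of the 6 aquaporins, 5 had enough reads to be tested, and all 5 were lower with UK-5099 (limma, Benjamini-Hochberg adjusted p from 6.80e-10 to 0.00657). Aqp11, which had the highest of these p-values, reached the minimum level for testing only through the 3-inhibitor group. The size of the difference ran from 1.35-fold for Aqp3, through 1.49-fold for Aqp5, 1.98-fold for Aqp9 and 2.33-fold for Aqp11, to 7.12-fold for Aqp4. Of all 15704 genes tested, 26.6% were called lower, and 53.8% were called in either direction. The groups did not overlap for any of the 5, with every UK-5099 library under every 3-inhibitor library, as was so for 30.1% of all genes tested (60.8% did not overlap in either direction). The median log2 fold change of the 5 was -0.98, and that of all genes tested was 0.00. In these bulk samples, fewer cells of a type and less RNA per cell cannot be told apart.

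Promoter windows are shown for Aqp3 and Aqp5, the members with nearly all of the aquaporin transcripts. The members tested were all lower with UK-5099, and these windows allow a reader to compare what lies before each gene. They are the 250 bases before the RefSeq start (build GRCm38.p6), where 5 of the 6 members matched the table and Aqp4 did not. The Aqp3 window is chr4:41098184-41098433 on the minus strand and the Aqp5 window is chr15:99590778-99591027 on the plus strand. Capitals mark matches, on either strand, to 7 motifs: TATAAA (the TATA box), GGGCGG (the GC box), CACGTG (an E-box), CAGAC (a SMAD box), TGANTCA (AP-1), GGAATG (TEAD) and AACNNGTT (Grainyhead). No match overlapped another.
Aqp3: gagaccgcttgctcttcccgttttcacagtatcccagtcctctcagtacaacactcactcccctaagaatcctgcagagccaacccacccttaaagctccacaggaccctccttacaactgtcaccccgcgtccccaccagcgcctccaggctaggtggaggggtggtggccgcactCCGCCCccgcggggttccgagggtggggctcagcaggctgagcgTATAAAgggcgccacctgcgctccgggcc
Aqp5: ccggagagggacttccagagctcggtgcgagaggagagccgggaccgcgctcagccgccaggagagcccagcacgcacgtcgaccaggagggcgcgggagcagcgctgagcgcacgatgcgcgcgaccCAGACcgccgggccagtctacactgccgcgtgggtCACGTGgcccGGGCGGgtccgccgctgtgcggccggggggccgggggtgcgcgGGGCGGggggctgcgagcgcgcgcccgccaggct
The Aqp3 window held 1 GC box and a TATA box 29 bases before the start. Of all 32851 windows, 12.4% held a TATA box at any place. The Aqp5 window held no TATA box. It had a GC content of 78.4% and 38 CpG dinucleotides, against medians of 52.4% and 6 over all windows, and Aqp3 stood at 64.0% and 14. Matches in the Aqp5 window were 2 GC boxes (32.7% of all windows held at least 1), 1 E-box (6.02%) and 1 SMAD box (42.2%). Among the other members, Aqp1 had a GC box and a SMAD box, Aqp11 had no match to any of the 7 motifs, and of 2 windows for Aqp9 one had a SMAD box and the other an AP-1 match (6.75% of all windows). The TEAD and Grainyhead motifs matched no window of these 5 genes. No searched motif was held by all of Aqp3, Aqp5, Aqp9 and Aqp11, which describes the letters in these windows and nothing more.

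Aqp5 (ENSMUSG00000044217) was the aquaporin with the most reads. Its normalized counts, the reads of a gene divided by a size factor for its library, were 33537, 31309 and 34198 in UK-5099 replicates 1 to 3 and 50389, 49299 and 48186 in 3-inhibitor replicates 1 to 3. Every UK-5099 library lay under every 3-inhibitor library, and the lowest 3-inhibitor value was 1.41 times the highest UK-5099 value. The group means of Aqp5 were 33015 ± 1513 and 49291 ± 1102 normalized counts (SD, n = 3), a log2 fold change of -0.58 ± 0.05 (SE; limma, adjusted p = 1.43e-06). Aqp5 is the channel through which gland cells release watery secretion.

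Aqp3 (ENSMUSG00000028435), the glycerol-passing channel of basal cells, stood at 23819, 22409.5 and 23027 normalized counts in UK-5099 replicates 1 to 3. In 3-inhibitor replicates 1 to 3 the Aqp3 values were 32624, 30904 and 29968. The groups were apart again, but the gap was narrower than for any other member tested, the lowest 3-inhibitor value being 1.26 times the highest UK-5099 value. Means were 23085 ± 707 and 31165 ± 1347 normalized counts (SD, n = 3), a log2 fold change of -0.43 ± 0.05 (SE; limma, adjusted p = 1.16e-05). Although Aqp3 is used as a basal cell marker, it went the other way from most of the basal markers examined. Of 6 basal genes, 5 were higher with UK-5099, among them Krt5 and Trp63, and 1 (Ngfr) was lower. Over all genes tested, 27.2% were higher and 26.6% lower.

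Aqp4 (ENSMUSG00000024411), a water-selective channel held in the membrane by the dystrophin complex, showed the widest difference of the members. Its normalized counts were 109, 115 and 118 in UK-5099 replicates 1 to 3 and 883, 744 and 832 in 3-inhibitor replicates 1 to 3. The lowest 3-inhibitor library held 6.29 times the highest UK-5099 library. The means were 114 ± 4.81 and 819.7 ± 70.8 normalized counts (SD, n = 3), a log2 fold change of -2.83 ± 0.09 (SE; limma, adjusted p = 6.80e-10). Ranked from the most lowered gene, Aqp4 was at place 153 of 15704, Aqp11 at 645, Aqp9 at 912, Aqp5 at 2062 and Aqp3 at 2864. An antisense gene overlaps Aqp4 in the GENCODE M21 annotation and the labels do not say whether counting used strand, so reads of that pair cannot be told apart for certain. That antisense gene was itself at no more than 3.09 normalized counts in any library.

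Aqp9 and Aqp11 were tested on few reads. Aqp9 (ENSMUSG00000032204), an aquaglyceroporin, was covered by 21, 27 and 14 reads in UK-5099 replicates 1 to 3 and by 50, 39 and 46 reads in 3-inhibitor replicates 1 to 3. On the normalized scale Aqp9 stood at 21.3, 25.1 and 17.1 against 51.5, 34.9 and 42.0, so that the groups were apart while their spread was wide. The genes that overlap Aqp9 on the opposite strand, Gm32511 and Gm47268, were at 0 in all libraries. Means were 21.1 ± 4.01 and 42.8 ± 8.37 normalized counts (SD, n = 3), with a log2 fold change of -0.98 ± 0.25 (SE; limma, adjusted p = 0.00598).

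Aqp11 (ENSMUSG00000042797), an intracellular member distant in sequence from the rest of the family, was covered by 10, 7 and 9 reads with UK-5099 and by 23, 25 and 23 reads with the 3 inhibitors. The normalized counts were 10.2, 6.50 and 11.0 against 23.7, 22.3 and 21.01, with no overlap. Means of Aqp11 were 9.21 ± 2.38 and 22.4 ± 1.35 normalized counts (SD, n = 3), a log2 fold change of -1.22 ± 0.32 (SE; limma, adjusted p = 0.00657). Aqp11 reached the minimum mean of 10 normalized counts for testing only through the 3-inhibitor group, and with no filter on low values its adjusted p was 0.0216 (limma). The interval of the Aqp11 change, from -1.92 to -0.52 at 95%, overlapped those of Aqp9 (-1.53 to -0.43), Aqp5 (-0.68 to -0.47) and, at its edge, Aqp3 (-0.54 to -0.33), and lay apart from that of Aqp4 (-3.03 to -2.64).

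Aqp1 (ENSMUSG00000004655) was not detectable at this depth with UK-5099, with 0 reads in each of the 3 libraries, which allows up to 3 reads a library, or between 2.78 and 3.65 normalized counts. With the 3 inhibitors it had 1, 0 and 1 reads. Both groups were under that limit, so no fold is given.

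**Figure D1:**
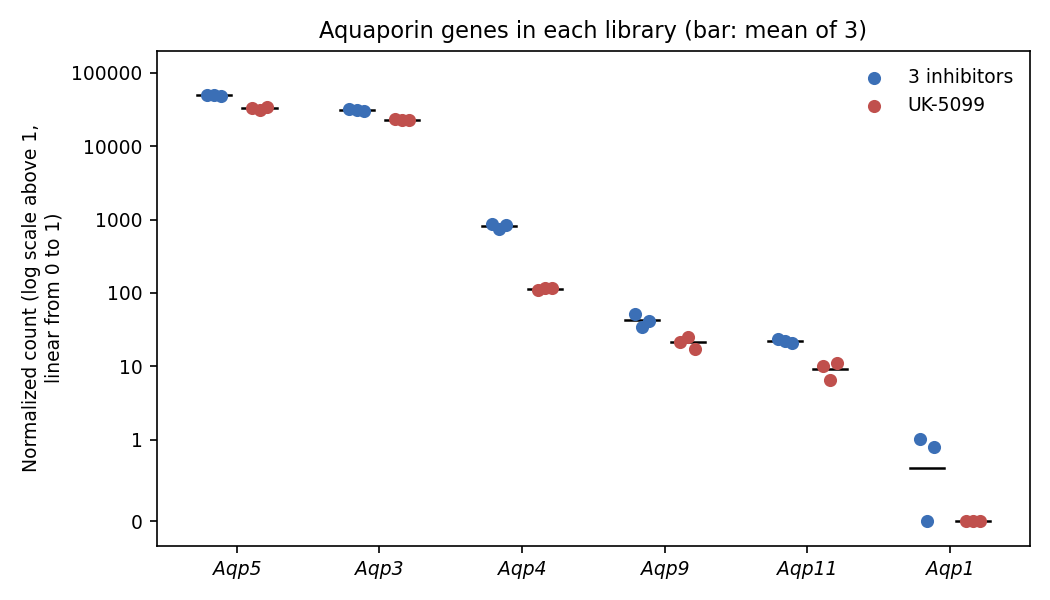
Normalized counts of the 6 aquaporins in each library (vertical axis, log scale above 1 and linear from 0 to 1), with 3-inhibitor libraries in blue, UK-5099 libraries in red and bars at the mean of 3. Aqp5 and Aqp3 have the highest counts in every library, Aqp4 separates the groups most widely, and Aqp1 is at 0 with UK-5099.

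**Figure D2:**
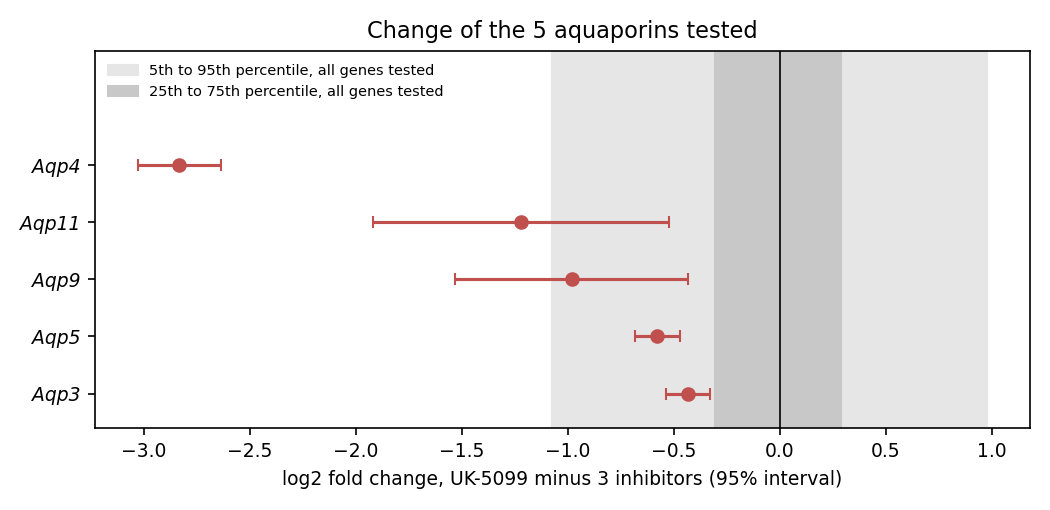
The log2 fold change of each tested aquaporin (horizontal axis, UK-5099 minus 3 inhibitors) with its 95% interval from limma, over grey bands holding the middle of all genes tested. All 5 points are below 0, and those of Aqp4 at -2.83 and Aqp11 at -1.22 lie beyond the 5th percentile of all genes (-1.08). The interval of Aqp11 (-1.92 to -0.52) spans that percentile, and the interval of Aqp4 (-3.03 to -2.64) does not. Aqp3 at -0.43 and Aqp5 at -0.58 lie below the 25th percentile (-0.30).

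Levels of different genes were compared per kb of exon, with exon lengths from GENCODE M21 joined over all isoforms. On this scale Aqp5 and Aqp3 were nearly level with UK-5099, at 12703 ± 582 and 12622 ± 386 normalized counts per kb (SD, n = 3), and their libraries overlapped. With the 3 inhibitors, Aqp5 at 18965.5 ± 424 per kb lay above Aqp3 at 17039.6 ± 737 per kb in all libraries. By level per kb these were among the most abundant transcripts of the cells: of 15502 tested genes with a length, Aqp5 held place 103 with UK-5099 and 56 with the 3 inhibitors, and Aqp3 held places 105 and 68. Aqp4 followed at 18.3 ± 0.771 and 131.5 ± 11.4 normalized counts per kb, then Aqp9 at 5.10 ± 0.967 and 10.3 ± 2.02, and Aqp11 at 0.977 ± 0.253 and 2.37 ± 0.143. From Aqp3 down to Aqp11, no library of one member reached the range of the next within either group. Together Aqp5 and Aqp3 made up nearly all of the summed level of the 6 members, and Aqp4 between 0.0672% and 0.0759% with UK-5099 and between 0.331% and 0.381% with the 3 inhibitors.

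**Figure D3:**
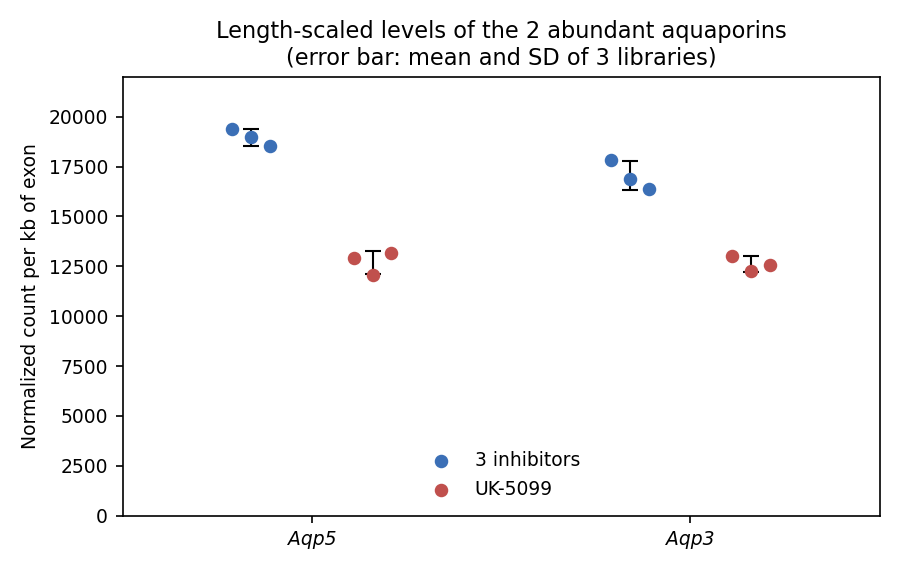
Normalized counts per kb of exon for Aqp5 and Aqp3 in each library (vertical axis from 0), with error bars for the mean and SD of 3 libraries. The genes overlap with UK-5099 (red, 12047 to 13158 for Aqp5 and 12252 to 13023 for Aqp3) and both are higher with the 3 inhibitors (blue).

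Ratios within a library, which do not depend on the scaling between libraries, were compared for 3 pairs of members. The count ratio of Aqp5 to Aqp3 was 1.41, 1.40 and 1.49 in UK-5099 replicates 1 to 3 and 1.54, 1.60 and 1.61 in 3-inhibitor replicates 1 to 3, so Aqp5 differed between the groups slightly more than Aqp3 did, by 0.15 on the log2 scale. The ratio of Aqp4 to Aqp5 ran from 0.00324 to 0.00368 with UK-5099 and from 0.0151 to 0.0175 with the 3 inhibitors, a 4.81-fold difference, and that of Aqp4 to Aqp3 differed 5.32-fold. None of the 3 ratios overlapped between the groups. Each gave an exact two-sided permutation p of 0.1, also 0.1 after adjustment over the 3, which is the smallest that 3 against 3 can give and cannot pass 0.05.

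The rest of the family was close to the limit of detection, except Aqp2. Aqp2, the vasopressin-regulated channel of the kidney collecting duct, stood at 43.7, 39.0 and 54.8 normalized counts in UK-5099 replicates 1 to 3 and at 39.2, 47.4 and 42.0 in 3-inhibitor replicates 1 to 3. Its groups overlapped and it did not pass the test (log2 fold change 0.08 ± 0.20, SE; 95% interval -0.36 to 0.53; limma, adjusted p = 0.758). In the GENCODE M21 annotation Aqp2, Aqp5 and Aqp6 follow each other on 1 strand with no gene between them, and beside the -0.58 of Aqp5 its neighbour Aqp2 had 0.08. Per kb, Aqp2 (32.3 ± 5.73, SD, n = 3) lay above Aqp4 (18.3 ± 0.771) in every UK-5099 library, whereas with the 3 inhibitors Aqp2 (30.2 ± 2.93) lay below Aqp4 (131.5 ± 11.4) in every library. Aqp7, an aquaglyceroporin of fat cells, had 2, 1 and 2 reads against 8, 8 and 11 and was below the limit for testing. With no filter on low values Aqp7 was called lower (limma, adjusted p = 0.0157), as 1 of 8686 genes called in either direction among 31040. Its UK-5099 reads were all within the limit of 3 reads a library used for Aqp1, so no fold is given. Aqp6, Aqp8 and Mip had at most 3 reads in any library, and Aqp12 had none.

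Genes around the aquaporins were read from 6 lists by function, with no test of a list as such. The osmolyte and osmotic stress genes, of which some load cells with organic solutes, were lower with UK-5099 in 7 of 7 tested. The share over all genes tested was 26.6%, and the median log2 fold change of these 7 was -1.29 beside 0.00. Among them were the inositol carrier Slc5a3 (3.11-fold lower), the taurine carrier Slc6a6 (2.66-fold), Akr1b3, which makes sorbitol (2.45-fold), and the kinase gene Sgk1 (3.51-fold). Of 9 genes of the dystrophin-linked complex that anchors AQP4, all 9 were lower (26.6% of all genes tested; median -0.71), with Dag1, Sntb2, Agrn and Utrn lower by 1.65-fold, 1.64-fold, 1.50-fold and 1.43-fold. These 4 had smaller folds than Aqp4 with its 7.12-fold. Dmd, which encodes dystrophin, was 6.41-fold lower on low levels of 2.59 and 17.99 normalized counts, and it reached the minimum mean of 10 only through the 3-inhibitor group. Its log2 fold change ran from -3.09 to -1.62 over the 12 of 16 alternatives in which Dmd was tested, so its size is not set apart from that of Aqp4. Of 16 genes for ion transport, the source of the gradients that water follows, 13 were lower and 1 higher (26.6% and 27.2% of all genes tested; median -0.98). The sodium pump subunit Atp1b1 was 8.49-fold lower, the bicarbonate carrier Slc4a4 8.01-fold and the sodium channel subunit Scnn1g 20.7-fold lower, while the chloride channel Ano1 had a log2 fold change of 1.56.

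The solutes that some aquaporins carry beside water had lists of their own, to be read beside the 26.6% of all genes tested that were lower and the 27.2% that were higher, or 53.8% in all. For glycerol and glycerolipids, 8 of 16 genes were lower and 2 higher (median -0.14), in all a share near that of all genes, with Gpd1l, Pnpla2 and Gpat4 lower by 3.98-fold, 2.27-fold and 1.30-fold and Dgat2 at a log2 fold change of 1.09. The 8 became 5 without UK-5099 replicate 1 and 5 without 3-inhibitor replicate 3. Gk, the glycerol kinase that would use glycerol entering through Aqp3, did not pass the test (log2 fold change -0.06 ± 0.04, SE; limma, adjusted p = 0.301). For hydrogen peroxide, 7 of 14 genes were higher and 3 lower (median 0.22): Cat, which breaks peroxide down, and Prdx3 had log2 fold changes of 1.43 and 0.70, and Prdx6 and Gpx4 of -0.55 and -0.80. Of 15 genes of cell volume control 6 were higher and 5 lower (median -0.10; 27.2% and 26.6% of all genes tested), a split that became 3 higher and 9 lower when libraries were centred on their median. The lower count was 3 without UK-5099 replicate 1 and 3 without 3-inhibitor replicate 1. Here Wnk4, Slc12a7 and Trpv4 were lower by 2.17-fold, 1.62-fold and 1.34-fold, and Slc12a4 had a log2 fold change of 0.65.

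**Figure D4:**
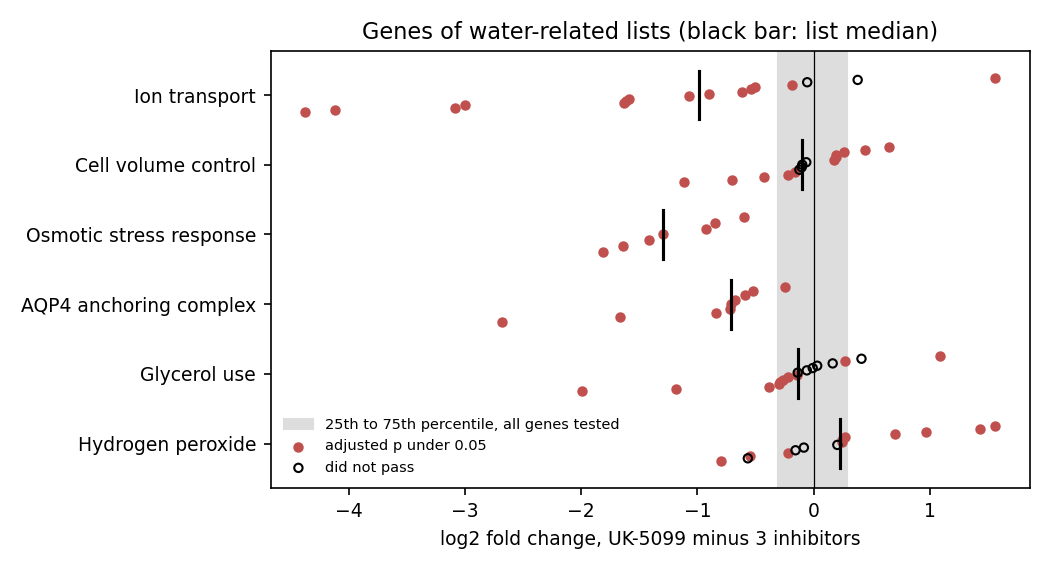
Log2 fold changes (horizontal axis, UK-5099 minus 3 inhibitors) of the tested genes of 6 lists, filled where the adjusted p was under 0.05, with a bar at each list's median and a grey band from the 25th to the 75th percentile of all genes tested. The osmotic stress list (median -1.29) and the AQP4 anchoring list (median -0.71) lie wholly below 0, and the hydrogen peroxide list has its median at 0.22.

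Markers of the cells in which these channels are best known moved as follows, and their part in the aquaporin differences was not tested. Their counts are to be read beside the 26.6% of all genes tested that were lower and the 27.2% that were higher. Of 8 secretory cell markers 5 were tested and all 5 were lower with UK-5099, like Aqp5 and Aqp4. Among these 5, Muc5b (8.13 and 29.6 normalized counts) reached the minimum mean of 10 only through the 3-inhibitor group. The summed level of the 8 was 7176 to 8958 normalized counts with UK-5099 and 47377 to 50073 with the 3 inhibitors. That sum came mostly from Cbr2 (6150 and 42903 on average), while Scgb1a1 stood at 36.5 and 170.9. Of 4 markers of ciliated cells, the other columnar cells, 2 were tested: Rsph1 (53.4 and 30.1 normalized counts) was higher with UK-5099, the opposite way to Aqp4, and Tppp3 did not pass the test (25.4 and 29.4). The 4 summed to 78.0 to 83.3 and to 46.5 to 81.3, with Foxj1 at 0.339 and 3.23 on average. The 6 submucosal gland markers summed to 2693 to 3941 and to 8969.95 to 9155, mostly from Ltf (3221 and 8961 on average). Ltf and Pigr, the 2 tested, were lower, and Bpifb1 was at 0. The 6 basal cell markers summed to 190883 to 211414 and to 55448 to 61081. Alveolar type I cells, where AQP5 is abundant, had 4 of 6 markers tested, with Hopx higher, Clic5 lower and Ager at 20.6 and 19.9 normalized counts, and alveolar type II cells had Sftpc at 0. The 1 tested of 5 alveolar type II markers, Abca3, was 2.12-fold lower with UK-5099 (557 and 1184 normalized counts), the same way as Aqp5. For Aqp1, the endothelial markers Cdh5, Emcn and Cldn5 were at 0 in all libraries. Of 4 endothelial markers tested, Tie1 (5.51 and 41.2 normalized counts) and Vwf (49.9 and 126.8) were lower, as the aquaporins were. Tek (12.7 and 12.3) and Egfl7 (49.6 and 35.4) did not pass the test. Tie1 reached the minimum mean of 10 only through the 3-inhibitor group. The 9 endothelial markers summed to 106 to 136 and 209 to 228, and the 6 erythroid markers to 8.13 to 17.1 and 7.15 to 17.5, with Hbb-bs and Hbb-bt at 0. For Aqp9, the leukocyte markers Csf3r and Adgre1 were at 0. The sum of 509 to 723 and 497 to 536 over 10 markers came mostly from Cd68 (565 and 479 on average). Leukocyte markers too low to be tested went both ways. Lyz2 (0.309 and 13.7 on average) and Cd79a (0 and 5.39) were lower with UK-5099, and S100a9 (14.8 and 1.89) was higher. For Aqp4, whose best known site is the astrocyte, Sox10 and Gfap were at most at 2.83 normalized counts on average, and the glial sum of 2034 to 2167 and 4986 to 5321 came mostly from Mbp (2054 and 5146 on average). Skeletal muscle markers summed to no more than 14.3 in any library. Xist was 1.70-fold higher and the Y-linked Ddx3y 1.76-fold lower with UK-5099, and this difference ran alongside every aquaporin result.

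Genes most like each member over the 6 libraries were sought among 10963 others by Pearson correlation of log2 values. For Aqp4 these were Mbp, Slc6a6 and Ifngr2, each with r = 0.9996. For Aqp3 they were Ostm1 (0.9996), H6pd (0.9994) and Klhdc2 (0.9991), and for Aqp5 they were Dhrs3 (0.9994), Slc35e3 (0.9993) and Gak (0.9993). Aqp11 was followed most closely by Wbp1l (0.9979), Traf6 (0.9976) and Myd88 (0.9975), and Aqp9 by Urm1 (0.9939), Il17rd (0.9909) and Dnase1l1 (0.9893). Many genes shared such a pattern for 4 of the members, with 17.5% of the candidates at an r above 0.95 with Aqp4, 14.9% with Aqp3, 18.5% with Aqp5 and 12.7% with Aqp11. For Aqp9 the share was 1.32%. Between members, r ran from 0.789 for Aqp9 with Aqp11 to 0.990 for Aqp3 with Aqp5, over the same 6 libraries and the same scaling. Every r here was taken over both groups at once. It therefore includes the difference between the groups and does not show that genes vary together within a group.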

How the data were processed

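RNA was sequenced in 6 libraries of cultured mouse airway basal cells, 3 for each condition. Per the submitters' processing notes, HISAT2 2.1.0, DESeq2 1.36.0 and the build GRCm39 were used, with no role stated. How reads were counted and on which annotation is not given in the sources used here. Values as deposited are in a unit other than plain counts: log2 of reads that the authors scaled by library size factors, with a text mark in place of 0.

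Values were raised back to normalized counts. Per library, 99.988% to 99.992% of the nonzero values were whole reads within a tolerance of 0.02, which gave 19909589 to 27037795 reads a library. Replicates differed by more than sampling noise (chi-square per degree of freedom from 2.37 to 10.9). The 15704 genes whose mean reached 10 normalized counts were tested as log2 of the value plus 1, with limma 3.58.1 in R 4.3.3 (trend, two-sided, no covariates) and Benjamini-Hochberg adjustment, called at 0.05. The added 1 understates the change of low genes. Of called genes 50.6% were higher, or 39.1% with libraries centred on their median. Simulated data with known changes served to test the code.

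All 6 members were named whatever their result, with up to 4 called genes a list by smallest adjusted p, the 3 genes most like each tested member (mean of at least 50) and markers of other cell types. Dmd and Gk were named after their values were seen, and 1 list gene is not reported here. The members, lists and motifs were chosen with earlier results of these data known. Scripts used Python 3.11.15, pandas 2.3.3, numpy 2.4.6 and matplotlib 3.10.9.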

Additional observations from a re-analysis of the deposited data

How the results depend on the processing

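Every tested aquaporin stayed lower and called under each alternative in which it was tested: 16 of 16 for Aqp3, Aqp4 and Aqp5, and 15 of 15 for Aqp9 and Aqp11. These changed the scaling (upper quartile, median centring, or limma-voom with TMM factors on recovered reads), the filter (none, or a mean of 50), the pseudocount (0.5 or 5), the variance model (no trend, or robust), added the replicate block, or left out each library. With a minimum mean of 50, Aqp9 and Aqp11 were not tested and the members called were 3 in place of 5. Log2 fold changes ran from -0.52 to -0.40 for Aqp3, -2.92 to -2.78 for Aqp4, -0.67 to -0.54 for Aqp5, -1.12 to -0.84 for Aqp9 and -1.35 to -0.96 for Aqp11. The highest adjusted p (limma) was 0.0348 for Aqp9 and 0.0281 for Aqp11, both without 3-inhibitor replicate 1. Over all genes, 7336 to 9146 were called with a library left out, against 8449. The numbered replicates are not shown to be paired: same-numbered libraries deviated with r of -0.017, 0.116 and -0.089, and not every library correlated best with its own number. With the replicate block, adjusted p was 0.0107 for Aqp9 and 0.0128 for Aqp11, and 8423 genes were called. Depth limits Aqp1, at 0 to 1 reads a library, and leaves Aqp9 and Aqp11 with the widest errors.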
